A study of Mus musculus with 2 samples.

Results

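The genes described are 33 that make cholesterol, sense it, take part in its uptake, release it from the lysosome, store it as ester or export it, out of 31053 genes in the table. They were chosen by name: the sterol pathway that the transcription factor SREBP2 controls, set against liver X receptor, efflux and trafficking genes. By role they fall into 14 sterol synthesis enzymes, 4 genes of SREBP2 control and sterol transfer, 11 genes for the liver X receptors and their targets, and 4 genes for lysosomal release and esterification. All 33 had at least 20 counts, from 176 for Lss to 29960 for Npc2.

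The cells came from the arch and thoracic part of the aorta of Apoe-/- mice, which lack apolipoprotein E and develop atherosclerosis. All mice ate a western diet for 4 weeks. In that time one group received saline and the other received nt-LNA at 30 mg/kg each week. The sources used here do not give strain background, age, sex or how many mice each library pools. Live CD45+/CD3- cells (leukocytes sorted against a T cell surface marker) were profiled in droplets by 3' single-cell RNA sequencing, with 1 library for each treatment: 2742 saline and 4871 nt-LNA cells. The deposited counts of unique molecular identifiers (UMIs, which count captured RNA molecules) are totals for 20 clusters of cells, each total holding the cells of both libraries. No gene can therefore be compared between the treatments, there are no replicates within a cluster, and every comparison between clusters is a description without a test.

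Animal cells make cholesterol from acetyl-CoA by way of mevalonate, isoprenoids, squalene and lanosterol. When sterols are scarce in the endoplasmic reticulum, Scap carries SREBP2 to the Golgi, where proteases free its active part to switch on the synthesis enzymes; when sterols are plentiful, Insig proteins hold the complex back. Liver X receptors respond to oxysterols and turn on genes for cholesterol export, such as the transporters Abca1 and Abcg1, and for fatty acid desaturation. In an atherosclerotic aorta, phagocytes take up lipoprotein, free its cholesterol in the lysosome, re-esterify part of it and export part of it.

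A level below is the count of a gene over the total count of its cluster, times 1000000 (CPM), and a ratio is that level over the mean of the other 19 clusters. Intervals are exact Poisson 95% intervals and cover counting error only. A gene is called over 2-fold higher or lower on values with 0.5 CPM added. The level of a cluster is a mean over its cells, so many cells with few transcripts cannot be told apart from few cells with many. Cluster totals ran from 212515 UMIs (cluster 16) to 12985745 (cluster 0), of 70206506 in all, and UMIs per cell from 1278 (cluster 5) to 24869 (cluster 19). Clusters 2, 5, 14 and 16 had few UMIs per cell (1278–3935), 7.24% to 11.2% mitochondrial counts against at most 4.29% elsewhere, and 9.79% to 11.03% ribosomal protein counts against at least 15.1% elsewhere. A per-cell ratio, given for genes high in these clusters, is UMIs per cell over the mean of the other clusters.

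Names of cell types are those deposited with the clusters, checked against marker genes. Clusters 1, 3, 7, 8, 15, 16, 17 and 18 carried 3 or more markers of 1 type among their 50 leading genes and are called B cell-like (1), NK cell-like (3), neutrophil-like (7), mature dendritic-like (8), nonclassical monocyte-like (15), group 2 innate lymphoid-like (16), type 1 dendritic-like (17) and plasmacytoid dendritic-like (18). Clusters 7, 8, 15, 17 and 18 are deposited as Macrophages and cluster 16 as T cells, so these names go against the deposited ones. Cluster 10, deposited as Macrophages, led with Spp1 and with 3 classical monocyte markers (Vcan, Chil3, F13a1). By the same count of markers it is classical monocyte-like. Its 6 classical monocyte markers summed to 4421 CPM, its 8 neutrophil markers to 2633 CPM and its 9 macrophage markers to 2097 CPM. Clusters 0, 6 and 19 are also deposited as Macrophages. The 9 macrophage markers summed to 6456 CPM in cluster 0 and 7260 CPM in cluster 19, with none at 0. In cluster 19 the 8 neutrophil markers summed to 4039 CPM. Vessel wall genes (Myh11, Cnn1, Acta2, Tagln) and the basophil genes Mcpt8 and Prss34 were among the leading genes of cluster 0. Their lists summed to 515 and 235 CPM there. Cluster 6 had high cell cycle genes, and its markers went against its name, with the 8 T cell markers summing to 3391 CPM and the 9 macrophage markers to 317 CPM. Cluster 4, deposited as B cells, led with antibody genes. In cluster 12, also deposited as B cells, the 8 B cell markers summed to 4835 CPM and the 8 T cell markers to 3068 CPM. T cell markers were present despite the CD3- sort, with Cd3e at 1331 CPM in cluster 5, 1100 CPM in cluster 14, 817 CPM in cluster 9 and 684 CPM in cluster 13, all deposited as T cells. Ptprc, which encodes CD45, was found in every cluster, from 295 to 2080 CPM. The libraries shared 2 cell barcodes.

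The promoters of 5 members are shown because they hold, or lack, exact matches to the letters searched for. Elements that differ from these letters were not searched for, so a promoter without a match can still hold one. They are the 250 bases before the RefSeq transcription start (assembly GRCm38.p6; the count table carries no coordinates), 5′ to 3′ on the strand of the gene. Capitals mark TCACNCCA, the core of a sterol regulatory element, CCAAT, the box bound by the SREBP partner NF-Y, or CACGTG, an E-box, each on either strand, so that CCAAT also appears as ATTGG. Hmgcs1 lies at chr13:119690101-119690350 (plus strand), Srebf2 at chr15:82147019-82147268 (plus), Insig1 at chr5:28071162-28071411 (plus), Cyp51 at chr5:4104698-4104947 (minus) and Abca1 at chr4:53159896-53160145 (minus).
Hmgcs1: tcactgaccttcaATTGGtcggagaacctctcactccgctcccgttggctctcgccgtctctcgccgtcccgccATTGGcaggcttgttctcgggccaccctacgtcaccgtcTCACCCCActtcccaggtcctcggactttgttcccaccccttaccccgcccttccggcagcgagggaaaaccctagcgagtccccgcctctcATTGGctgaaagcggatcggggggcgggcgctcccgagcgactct
Srebf2: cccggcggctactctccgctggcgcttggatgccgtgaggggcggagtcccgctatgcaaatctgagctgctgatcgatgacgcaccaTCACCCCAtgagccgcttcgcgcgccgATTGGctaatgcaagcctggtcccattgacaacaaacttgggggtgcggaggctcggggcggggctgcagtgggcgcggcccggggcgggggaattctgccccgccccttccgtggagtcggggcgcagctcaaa
Insig1: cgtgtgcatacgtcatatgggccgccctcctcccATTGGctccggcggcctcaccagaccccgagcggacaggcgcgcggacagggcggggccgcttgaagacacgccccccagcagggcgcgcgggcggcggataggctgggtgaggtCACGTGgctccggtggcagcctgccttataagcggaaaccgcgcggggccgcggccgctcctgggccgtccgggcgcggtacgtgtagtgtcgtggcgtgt
Cyp51: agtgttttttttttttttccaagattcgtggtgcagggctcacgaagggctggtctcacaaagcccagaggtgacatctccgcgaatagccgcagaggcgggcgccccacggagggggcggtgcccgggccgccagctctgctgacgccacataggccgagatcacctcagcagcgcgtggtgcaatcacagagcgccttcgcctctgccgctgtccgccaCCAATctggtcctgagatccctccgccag
Abca1: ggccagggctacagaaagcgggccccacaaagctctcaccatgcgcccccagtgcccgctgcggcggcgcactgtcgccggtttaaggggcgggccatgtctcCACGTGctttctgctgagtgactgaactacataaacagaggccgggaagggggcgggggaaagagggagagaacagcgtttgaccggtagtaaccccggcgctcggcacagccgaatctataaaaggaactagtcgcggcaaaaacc

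Hmgcs1 and Srebf2 both hold TCACCCCA, 137 to 130 and 162 to 155 bases before the start. Hmgcs1 has 3 CCAAT boxes, Srebf2 and Insig1 have 1 each, and the only marked letters of Cyp51 are a CCAAT box 29 to 25 bases before its start. Abca1 holds an E-box (147–142 bases before) and no CCAAT box. RefSeq promoters were matched for 25 of the 33 members; Fdft1, Abcg1, Scd1, Fdps, Sqle, Npc1, Stard4 and Scd2 were not matched. CCAAT stood in 20 of the 25 (80%), and in 10 of the 11 matched synthesis enzymes, against 37.5% of 27025 genes. A gene was counted once, if any of its promoters of this length held the letters. TCACNCCA stood in 3 of 25 (12%: Hmgcs1, Msmo1 and Srebf2) against 4.20% of all. CACGTG stood in 5 of 25 (20%) against 6.86%. The DR4 repeat, one form of liver X receptor element searched without mismatches, was in none of the 25 and in 0.0148% of all. A match of letters is a description and not a binding site.

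Sterol synthesis enzymes were highest as a share of RNA in cluster 14 (deposited as T cells, with high cell cycle genes), in the plasmacytoid dendritic-like cluster 18 and in cluster 13 (deposited as T cells). Their summed level was 549 CPM (499–604) in cluster 14, 542 CPM (481–607) in cluster 18 and 410 CPM (384–438) in cluster 13, or 2.55, 2.50 and 1.84 times the mean of the other clusters. At the other end stood the nonclassical monocyte-like cluster 15 with 91.4 CPM (75.8–109) and the B cell-like cluster 1 with 95.1 CPM (86.0–105). Other clusters with myeloid markers lay between: the mature dendritic-like cluster 8 had 204 CPM, cluster 0 had 188 CPM and cluster 10 had 141 CPM (132–151). Cluster 6, deposited as Macrophages but higher in T cell than in macrophage markers, had 293 CPM (283–303).

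Clusters 14 and 18 each had 8 of the 14 enzymes over 2-fold higher and none lower. Over all 14202 genes with at least 20 counts, 20.2% were over 2-fold higher in cluster 14 and 8.6% in cluster 18, so the share of enzymes stood further above the background in cluster 18. The median log2 ratio of the enzymes was 1.04 in cluster 14 (0.01 over all genes) and 1.29 in cluster 18 (-0.38 over all genes). Cluster 13 had 6 of 14 higher and none lower (9.22% of all genes higher) with a median of 0.83 against -0.08. Cluster 6 had 3 higher (7.18% of all genes). On the low side, 8 of 14 were over 2-fold lower in cluster 1 (29.1% of all genes), 7 in cluster 15 (23.1%), 7 in the antibody-rich cluster 4 (33.2%) and 6 in the neutrophil-like cluster 7 (18.6%). Over all members and clusters, 29.5% of the calls were on the higher side, beside 25.6% over all genes. Against the median of the other clusters in place of the mean these shares were 62.7% and 58.0%. The balance of higher to lower calls thus rests on the reference.

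**Figure D1:**
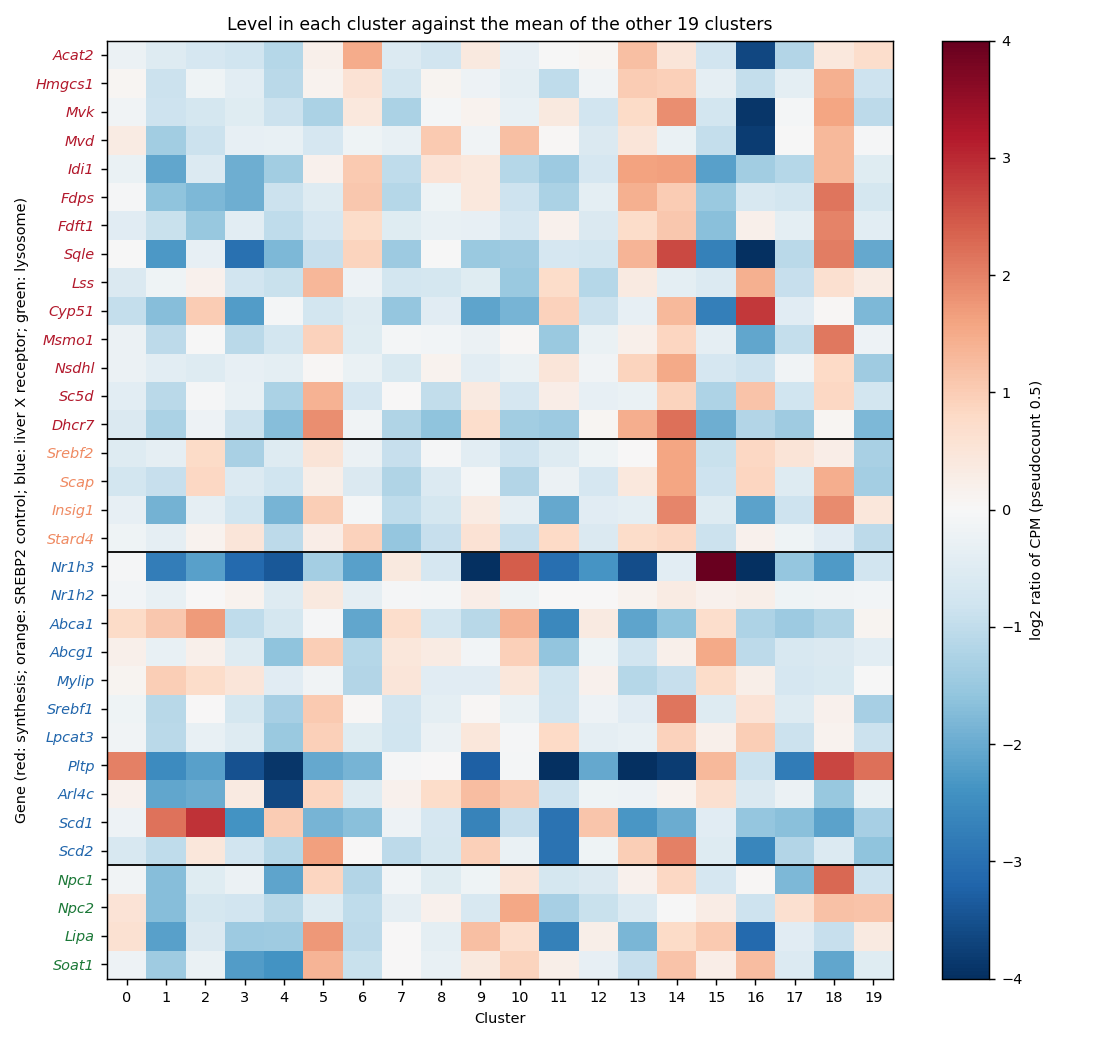
Heat map of the log2 ratio of each of the 33 genes (rows, by role) in each of the 20 clusters (columns): level in the cluster over the mean of the other 19, 0.5 CPM added, with red for higher, blue for lower and a colour scale that ends at 4 in either direction. Clusters 14 and 18 are red across most synthesis enzymes, whereas the liver X receptor genes are red in different clusters from gene to gene.

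Of the first steps of the pathway, Hmgcs1, Mvk and Mvd were each over 2-fold higher in cluster 18. Hmgcs1, which makes HMG-CoA, ran from 8.60 CPM (cluster 4) with a median of 15.3 to 46.1 CPM (29.8–68.0) in cluster 18, followed by 35.8 CPM in cluster 13 and 34.7 CPM in cluster 14, which counting error does not separate. Acat2, which joins acetyl-CoA units, was highest in cluster 6 at 14.7 CPM (12.5–17.2) and next in cluster 13 at 12.4 CPM. Its median over clusters was 4.44 CPM. Of the mevalonate enzymes, Mvk (mevalonate kinase) was highest in cluster 14 at 21.8 CPM (12.7–34.9) and in cluster 18 at 18.4 CPM, against a median of 4.96 CPM. Mvd, the decarboxylase that ends this stage, had 14.7 CPM in cluster 18, 13.97 CPM (11.2–17.2) in cluster 10 and 12.7 CPM in cluster 8. Mvd was thus the 1 enzyme over 2-fold higher in cluster 10 and in cluster 8 (5.03% of all genes), while 5 others were over 2-fold lower in cluster 10.

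The isoprenoid enzymes Idi1 and Fdps were high in 4 clusters. Idi1, which isomerises isopentenyl diphosphate, had 70.6 CPM (53.2–91.9) in cluster 14, 69.3 CPM (58.7–81.3) in cluster 13, 57.1 CPM in cluster 18 and 49.0 CPM in cluster 6, against a median of 16.3 and a lowest level of 5.33 CPM in cluster 15. Fdps, which makes farnesyl diphosphate, stood alone in cluster 18 at 136 CPM (107–171), above 90.0 CPM (77.8–103) in cluster 13 and 72.3 CPM in cluster 6, with a median of 22.9 and a lowest level of 9.26 CPM in cluster 3. Both genes were thus high in the same 4 clusters, and over the 20 clusters their log2 levels had a Pearson correlation of 0.89 (Spearman 0.87). Correlations here are descriptions over 20 clusters that share 2 libraries and differ in depth. Fdft1 (squalene synthase) followed Fdps, with 29.5 CPM in cluster 18, 16.7 CPM in cluster 14 and a median of 5.97 CPM.

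Past squalene the highest cluster differed from enzyme to enzyme. Sqle, squalene epoxidase, had the largest ratio of the group after Cyp51: 38.5 CPM (26.0–55.0) in cluster 14, 6.68 times the others, then 27.6 CPM in cluster 18 and 18.4 CPM in cluster 13, with a median of 3.58 and 0.762 CPM in cluster 15. Msmo1, which removes methyl groups from the sterol, was highest in cluster 18 at 77.4 CPM (55.8–105), 4.41 times the others, and then in cluster 5 at 38.0 CPM. Dhcr7, which makes cholesterol from 7-dehydrocholesterol, had 83.4 CPM (64.4–106) in cluster 14, 68.4 CPM in cluster 5 and 53.7 CPM in cluster 13, against a median of 10.6 CPM. The 3 clusters highest in Dhcr7 were all deposited as T cells. Sc5d, the enzyme just before it, had 60.8 CPM (44.8–80.6) in cluster 5, 51.8 CPM in cluster 16 and 44.9 CPM in cluster 14; per cell the ratios there were 0.390, 0.496 and 0.911, and cluster 18 was highest. Nsdhl, which acts with Msmo1, had 23.1 CPM in cluster 14 and 15.6 CPM in cluster 13. Lss, which closes the sterol rings, had a median of only 2.49 CPM, and its highest value, in cluster 16, rests on 2 counts, with a per-cell ratio of 0.607.

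The choice of scale bears on cluster 14. Counted as UMIs per cell, the enzymes summed to 2.16 in cluster 14 and 1.03 times the mean of the other clusters, and their median log2 ratio there was -0.22. Of the 8 enzymes over 2-fold higher in cluster 14 as CPM, 6 had per-cell ratios above 1 (Sqle 2.32, Dhcr7 2.28, Mvk 1.37, Cyp51 1.33, Nsdhl 1.16 and Idi1 1.13), while Fdft1 had 0.797 and Fdps 0.717. In cluster 5, the per-cell ratio was 0.557 for Dhcr7 and 0.237 for Msmo1. Cluster 18 kept 4.98 UMIs per cell, 2.57 times the others, and cluster 13 kept 3.65, or 1.81 times. Cluster 6, whose cells held 22031 UMIs each, had the most enzyme UMIs per cell, 6.45, and was the highest cluster of 9 of the 14 enzymes, with 159 Fdps, 108 Idi1 and 59.1 Hmgcs1 UMIs per 100 cells. Of the clusters highest as CPM, clusters 18 and 13 were thus high on both scales. Cluster 6, highest per cell, was 1.28 times the others as CPM. Without clusters 2, 5, 14 and 16, the plasmacytoid dendritic-like cluster was highest for 8 of the 14 enzymes and cluster 13 for 3.

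**Figure D2:**
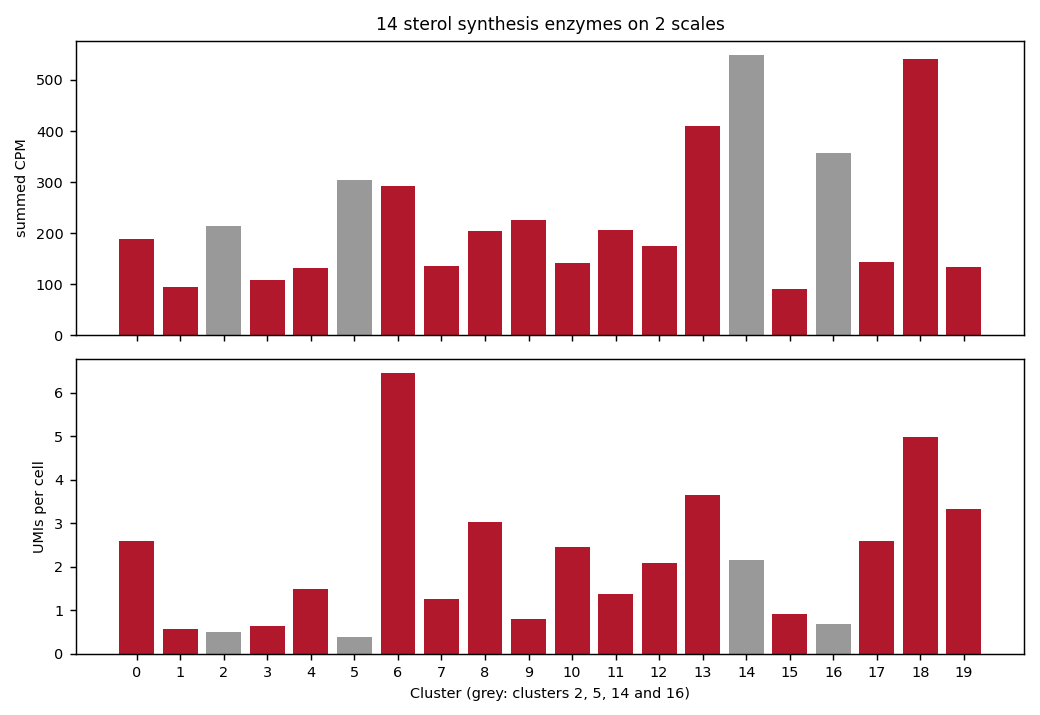
Summed level of the 14 synthesis enzymes by cluster as CPM (upper bars) and as UMIs per cell (lower bars), with the 4 clusters of few UMIs per cell in grey. Cluster 14 is highest as CPM with 549 and falls to 2.16 UMIs per cell, below cluster 6 with 6.45 and cluster 18 with 4.98.

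Cell cycle genes were high in some of the same clusters. The 22 cell cycle genes summed to 7277 CPM in cluster 14 and 6230 CPM in cluster 6, against 214 to 1089 CPM in the other 18 clusters; all 22 were over 2-fold higher in both. Clusters 13 and 18, with 780 and 595 CPM, were within the range of the rest, although their enzyme sums were the third and second highest. Over the 20 clusters the cell cycle sum and the enzyme sum had a Pearson correlation of 0.51 (Spearman 0.44). The part of the cell cycle in the enzyme levels was not tested. In cluster 18, which holds 59 cells, 20 of them from the saline library, the 6 plasmacytoid markers summed to 12478 CPM against at most 4413 CPM elsewhere, and none was at 0. Its macrophage marker sum was 321 CPM with Mertk at 0, against 6456 CPM in cluster 0. Its 6 classical monocyte markers summed to 4318 CPM with Vcan at 0, close to the 4421 CPM of cluster 10, and its 6 type 1 dendritic markers to 2365 CPM with Xcr1 and Itgae at 0. The part of these in its levels was not tested.

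Cyp51, the lanosterol demethylase, stood apart from the other enzymes. It was highest in the group 2 innate lymphoid-like cluster 16 at 226 CPM (167–299; 48 counts), 7.14 times the mean of the others, then in cluster 14 at 94.99 CPM, cluster 2 at 79.2 CPM (65.8–94.7) and cluster 11 at 75.7 CPM (64.7–88.1), against a median of 27.2 CPM. Cluster 11, deposited as T cells, shares leading genes Il5 and Areg with the innate lymphoid list, and 5 of the other enzymes were over 2-fold lower there (27.8% of all genes). The correlation of Cyp51 with Fdps was 0.24 (Spearman 0.28). With the mean of the remaining enzymes it was 0.23, next to the lowest, 0.20 for Lss, in a group with a median of 0.71 and a highest value of 0.91 for Sqle.

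Cyp51 alone made up most of the enzyme sum of cluster 16, which was 358 CPM (282–448) with it and 132 CPM (87.6–190) without it. In cluster 16, 7 enzymes were over 2-fold lower (35.5% of all genes) and 3 higher (16%). Of the 7, Acat2, Mvk, Mvd and Sqle had 0 counts; at this depth a count of 0 allows a level of up to 14.1 CPM, so their absence was not measurable. Per cell, Cyp51 was highest in cluster 6, and its ratio was 1.54 in cluster 16 and 0.624 in cluster 2. Leaving Cyp51 out, clusters 18, 14 and 13 remained highest with 499, 454 and 377 CPM.

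**Figure D3:**
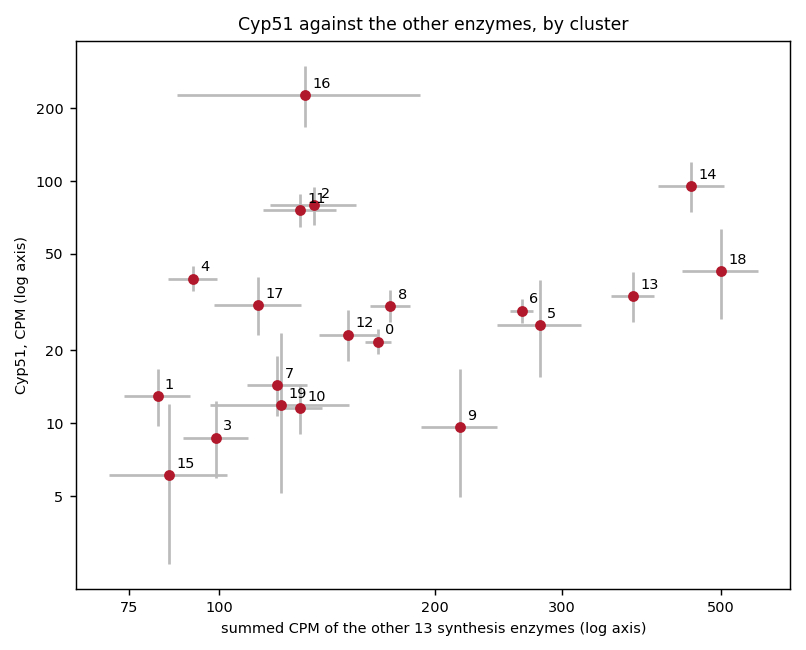
Level of Cyp51 against the summed level of the other 13 synthesis enzymes (both CPM, log axes), 1 numbered point per cluster with grey bars for the exact Poisson 95% intervals. Cluster 16 lies at the top with 226 CPM of Cyp51 beside 132 CPM of the others, while clusters 18 and 13 lie to the right with 499 and 377 CPM of the others.

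The regulators of the pathway were also high in clusters 14 and 18. The 4 genes summed to 431 CPM (386–480) in cluster 14 and 297 CPM (253–346) in cluster 18, against a lowest value of 74.95 CPM (66.3–84.4) in the neutrophil-like cluster 7. In cluster 14, 3 of the 4 were over 2-fold higher (20.2% of all genes), and in cluster 18, 2 of 4 (8.6%). Insig1, which holds the Scap complex back and is itself an SREBP target, had 140 CPM (115–169) in cluster 14 and 134 CPM (105–169) in cluster 18, then 78.5 CPM in cluster 5, against a median of 31.2 CPM. Scap, the escort, had 73.2 CPM (55.4–94.8) and 68.2 CPM (48.0–94.0) in the same clusters, against 18.5 CPM. For both genes the levels of clusters 14 and 18 differed by less than the counting error.

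Srebf2, which encodes SREBP2, was over 2-fold higher in cluster 14 and in no other: 196 CPM (167–230), 3.02 times the others, then 122 CPM in cluster 16 and 119 CPM in cluster 2, with a median of 59.3 and a lowest value of 29.8 CPM in cluster 19. Stard4, a cytosolic sterol carrier, never passed 2-fold higher and was highest in cluster 6 at 23.1 CPM, next to 21.8 CPM in cluster 14. Srebf1, which encodes SREBP1 and is listed with the liver X receptor targets, followed Srebf2: 100 CPM (79.1–125) in cluster 14, 51.9 CPM in cluster 5 and a median of 20.8 CPM, with a Pearson correlation of 0.77 (Spearman 0.72) over the clusters. Per cell, the group had a median log2 ratio of 1.03 in cluster 18 and 0.41 in cluster 14. The per-cell ratios in cluster 14 were 1.45 for Insig1, 1.39 for Scap, 1.28 for Srebf2 and 1.92 for Srebf1, while Srebf2 in cluster 2 had 0.431 and Srebf1 in cluster 5 had 0.298.

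The liver X receptors differed from each other. Nr1h3, which encodes LXR alpha, was highest in clusters with myeloid markers: 96.8 CPM (80.7–115) in the nonclassical monocyte-like cluster 15, 16.9 times the mean of the others, then 46.9 CPM (41.7–52.6) in cluster 10, 13.6 CPM in cluster 7, 9.86 CPM in cluster 0, 7.70 CPM in cluster 14 (deposited as T cells) and 6.46 CPM in cluster 8. Its median was 1.97 CPM, and clusters 9 and 16 had 0 counts, which allow up to 2.40 and 14.1 CPM. Nr1h2, which encodes LXR beta, was level: 43.3 CPM in cluster 4, a median of 60.2 and 78.5 CPM (60.2–101) in cluster 5, and over 2-fold from the mean in no cluster (per cell, the ratio of cluster 5 was 0.166). The Pearson correlation of the 2 receptors was 0.01 (Spearman -0.13). Nr1h3 was highest in cluster 15 per cell too, at 96.2 UMIs per 100 cells.

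Of the export genes, Abcg1 followed Nr1h3 more closely than Abca1 did. Abcg1, which passes cholesterol to high-density lipoprotein, had 248 CPM (221–276) in cluster 15, 180 CPM in cluster 5 and 176 CPM (166–187) in cluster 10, with a median of 81.9 and a lowest level of 32.1 CPM in cluster 4. Abca1, which passes it to lipid-poor apolipoprotein, had 162 CPM (142–183) in cluster 2, 134 CPM (125–143) in cluster 10, 110 CPM in cluster 1, 90.3 CPM in cluster 0 and 86.9 CPM in cluster 15. The lowest level of Abca1 was 9.07 CPM in cluster 11. Abca1 was thus high in a pair of B cell clusters as well as in Spp1-high cells. The correlation with Nr1h3 was 0.77 for Abcg1 (Spearman 0.71) and 0.52 for Abca1 (0.46), and the difference of these was not tested. Per cell, both transporters were highest in cluster 10, with 306 Abcg1 and 232 Abca1 UMIs per 100 cells, while Abca1 in cluster 2 had a ratio of 0.671 and Abcg1 in cluster 5 one of 0.237.

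Mylip, a ubiquitin ligase that leads lipoprotein receptors to degradation, went with Abca1. It had 68.3 CPM (60.7–76.6) in cluster 1, 58.9 CPM in cluster 2 and 58.7 CPM in cluster 15, with a median of 34.3 and a lowest level of 16.4 CPM in cluster 6, and a correlation with Abca1 of 0.85 (Spearman 0.85). Arl4c, a small GTPase, was highest in cluster 9 at 227 CPM (201–255), followed by 200 CPM in cluster 10 and 180 CPM in cluster 5. The lowest level of Arl4c was 8.17 CPM in cluster 4, and per cell cluster 9 was at 0.746 times the others. Lpcat3, which puts unsaturated fatty acids into phospholipids, had near-equal levels of 65.9, 64.6 and 64.2 CPM in clusters 16, 5 and 14, and a median of 29.5 CPM. All 3 clusters have few UMIs per cell, and the per-cell ratios were 0.415, 0.272 and 0.858.

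Pltp, the phospholipid transfer protein, had the widest fold range of the receptor targets, from 2.30 CPM in cluster 13 to 462 CPM (407–523) in cluster 18, with 356 CPM (312–404) in cluster 19, 324 CPM (314–334) in cluster 0, 210 CPM in cluster 15 and a median of 22.8 CPM. It was the 1 target over 2-fold higher in cluster 0 (6.52% of all genes) and in cluster 18, where Nr1h3, Abca1, Arl4c and Scd1 were over 2-fold lower (30.4% of all genes lower). Cells of the vessel wall can also express Pltp. The 9 vessel wall markers summed to 515 CPM with none at 0 in cluster 0, to 169 CPM with 7 at 0 in cluster 18 (Myh11, Cnn1, Acta2, Tagln, Col1a1, Col3a1 and Lum, so that the sum is from Pecam1 and Cdh5) and to 38.7 CPM with 6 at 0 in cluster 19; other clusters had 16.2 to 154 CPM. Their part in the Pltp level was not tested.

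The desaturases Scd1 and Scd2, which make monounsaturated fatty acids from saturated ones, were high in different clusters. Scd1 was a gene of the clusters deposited as B cells: 538 CPM (502–576) in cluster 2, 362 CPM (345–381) in cluster 1, 193 CPM in cluster 12 and 183 CPM in cluster 4, with a median of 35.8 CPM. Those were all 4 such clusters, and Scd1 was over 2-fold higher in each, beside 10%, 2.78%, 1.94% and 3.02% of all genes in that order. Scd2 was over 2-fold higher in clusters 14 and 5, both deposited as T cells. It had 299 CPM (262–340) in cluster 14, 237 CPM in cluster 5, 160 CPM in cluster 13 and 155 CPM in cluster 9, with 42.3 CPM in cluster 1. Other clusters deposited as T cells had its lowest levels, 10.9 CPM in cluster 11 and 14.1 CPM in cluster 16. Scd1 had 24.4 CPM in cluster 14 and 26.6 CPM in cluster 5. Their Pearson correlation was -0.03 (Spearman -0.10). The genes are close in sequence, and how reads common to both were counted is not stated here. Per cell, Scd1 was highest in cluster 12 with 230 UMIs per 100 cells, and the ratio of cluster 2 was 1.69. Both are deposited as B cells, but cluster 12 also carried T cell markers. Scd2 was highest per cell in cluster 6, with ratios of 1.86 in cluster 14 and 0.445 in cluster 5.

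**Figure D4:**
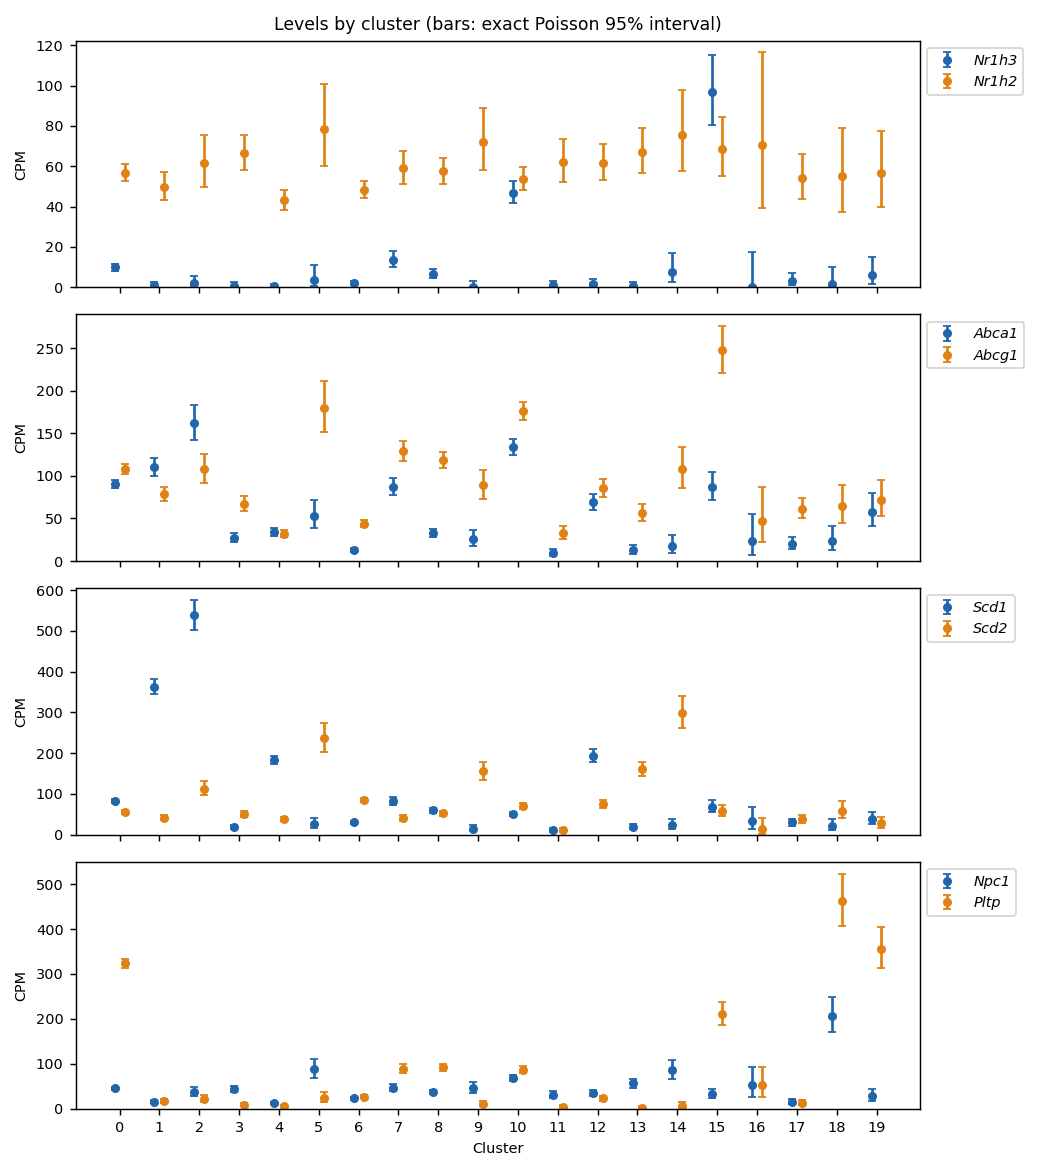
Levels (CPM, linear axes) of 4 pairs of genes in each of the 20 clusters, with points for the level and bars for its exact Poisson 95% interval: Nr1h3 and Nr1h2, Abca1 and Abcg1, Scd1 and Scd2, Npc1 and Pltp. Nr1h3 reaches 46.9 and 96.8 CPM in clusters 10 and 15 and at most 13.6 CPM in the others where Nr1h2 lies between 43.3 and 78.5 CPM, and Scd1 peaks in clusters 1, 2, 4 and 12 while Scd2 peaks in clusters 5 and 14.

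As a group, the receptors and their targets were not high in 1 place. The sum was highest in cluster 2 with 1145 CPM (1092–1200), 538 of it from Scd1, though per cell its ratio went from 1.71 to 0.378. Next came cluster 15 with 1113 CPM (1057–1172), where the median log2 ratio was 0.65 against -0.33 over all genes. In cluster 15, 3 of 11 were over 2-fold higher (Nr1h3, Abcg1 and Pltp) and none lower, beside 6.08% of all genes higher. Cluster 10 also had 3 higher (Nr1h3, Abca1 and Arl4c) and none lower, beside 6.2% of all genes. The lowest sum was 288 CPM (266–311) in cluster 11, where 6 of 11 were lower (27.8% of all genes), and cluster 6 had 6 of 11 lower with 389 CPM (20.6% of all genes lower). Per cell the median log2 ratio of cluster 6 was 0.069 in place of -1.15, so its low share goes with a high total per cell.

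As summed CPM, lysosomal release was highest in the Spp1-high cluster 10, a rank that rests on Npc2. The 4 genes summed to 1537 CPM (1506–1568) there, 2.43 times the mean of the others, then to 1177 CPM (1088–1272) in cluster 18, 1107 CPM in cluster 19 and 923 CPM in cluster 5. The lowest sums were 214 CPM (201–229) in cluster 1 and 268 CPM in cluster 4, where all 4 genes were over 2-fold lower (29.1% and 33.2% of all genes). Npc2, which binds cholesterol inside the lysosome, made up most of the sum, with 1126 CPM in cluster 10, 897 CPM (819–981) in cluster 18, 888 CPM in cluster 19, 640 CPM in cluster 17 and 604 CPM in cluster 0. Its lowest level was 134 CPM in cluster 1 and its median 298 CPM. Without Npc2, cluster 10 had 410 CPM, 1.68 times the others, and none of its 3 genes was over 2-fold higher. It then stood below cluster 5 with 620 CPM and cluster 14 with 471 CPM. Per cell, these 3 genes summed to 7.14 UMIs in cluster 10, 0.793 in cluster 5 and 1.85 in cluster 14.

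Npc1, the membrane protein that takes cholesterol over from Npc2, was highest elsewhere: 206 CPM (170–248) in cluster 18, 4.96 times the others, against 87.4 CPM in cluster 5, 86.0 CPM in cluster 14, 68.6 CPM in cluster 10 and a median of 39.6 CPM. Per cell Npc1 was highest in cluster 18 too, at 190 UMIs per 100 cells. Npc1 is also an SREBP2 target, and cluster 18 was among the highest for the synthesis enzymes. Srebf2 itself was over 2-fold higher in cluster 14 only. The part of SREBP2 in the Npc1 level was not tested. Lipa, the lysosomal acid lipase that frees cholesterol from its esters, had 244 CPM (211–281) in cluster 5, 178 CPM in cluster 9 and 161 CPM in cluster 15, against a median of 61.0 CPM. Soat1, which esterifies cholesterol for storage, had 289 CPM (252–329) in cluster 5, 268 CPM in cluster 16, 252 CPM in cluster 14 and 214 CPM in cluster 10, with a median of 100 CPM. In cluster 18 Soat1 was over 2-fold lower, at 29.5 CPM. The high levels of Lipa and Soat1 in cluster 5 rest on the share of RNA: per cell they were 0.385 and 0.345 times the mean of the others. Soat1 in clusters 16 and 14 had per-cell ratios of 0.480 and 0.956.

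**Figure D5:**
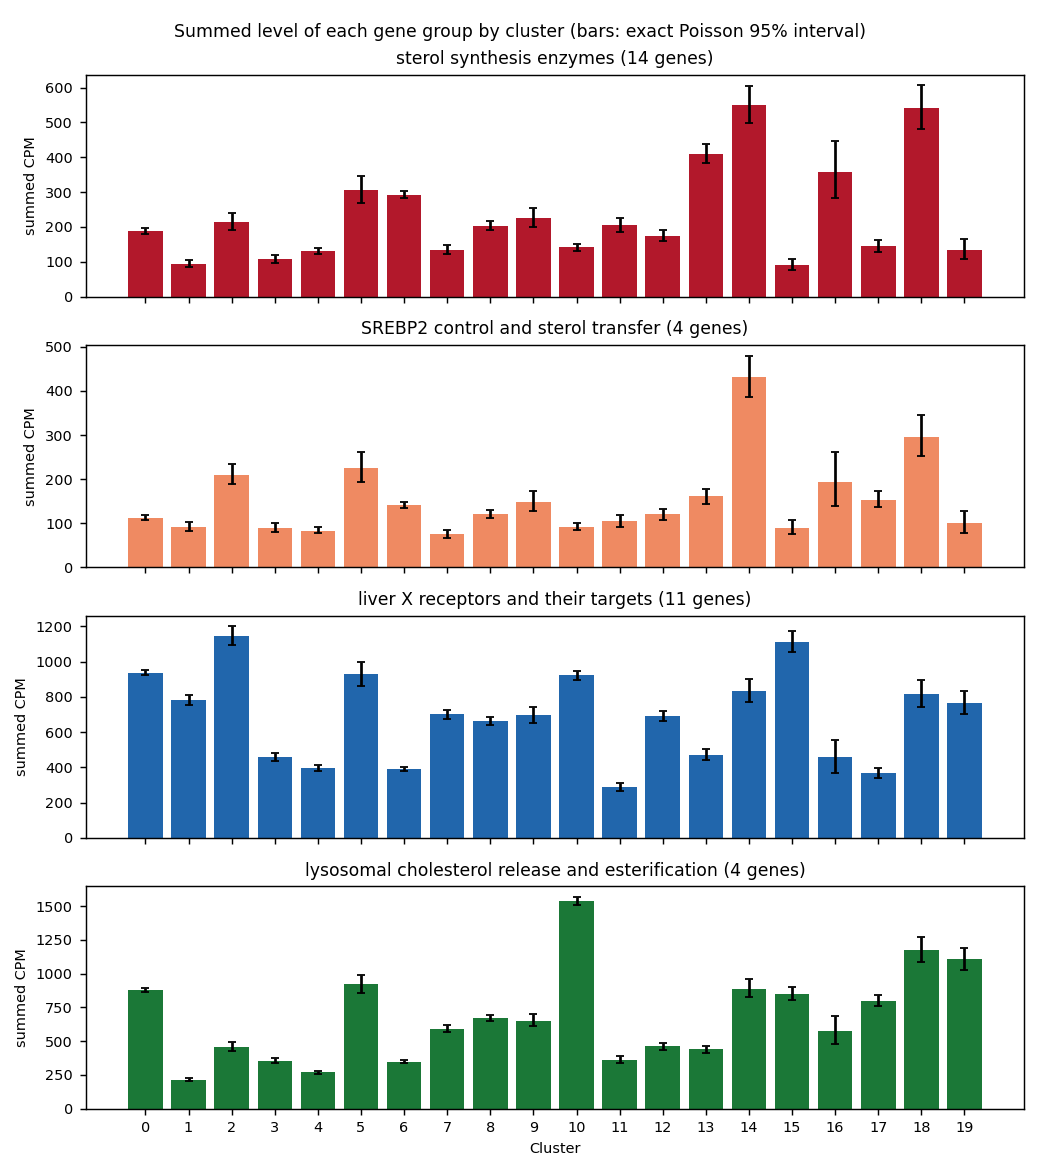
Summed CPM of each of the 4 gene groups by cluster, with exact Poisson 95% intervals (counting error only). Synthesis and SREBP2 control peak in clusters 14 and 18, the receptor targets in clusters 2 and 15, and lysosomal release in cluster 10 with 1537 CPM.

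The clusters can be read by their mix of roles. Cluster 18 had high synthesis (542 CPM), high Insig1, Scap and Npc1, and low Abca1, Nr1h3 and Soat1. As CPM, cluster 15 had the lowest enzyme sum, which counting error does not separate from cluster 1, and the highest Nr1h3 and Abcg1. Per cell its enzymes summed to 0.909 UMIs, above the 0.563 of cluster 1 and the 0.390 of cluster 5. Nr1h3 was highest per cell in cluster 15 too, but Abcg1 in cluster 10. Cluster 15 was not the reverse of cluster 18 throughout. None of the 4 SREBP2 control genes and none of the 4 lysosomal genes was over 2-fold lower in cluster 15, and Pltp was over 2-fold higher in both. As CPM, cluster 10 was low in synthesis (5 of 14 lower, 15.5% of all genes), with high Nr1h3, Abca1, Arl4c and Npc2. Per cell its enzymes summed to 2.46 UMIs, above the 2.16 of cluster 14. The low synthesis of cluster 10 thus rests on the share of RNA. The B cell-like cluster 1 had low synthesis and low lysosomal genes, with high Scd1 and Abca1. Of 660 pairs of member and cluster, 69 (10.5%) were over 2-fold higher and 165 (25%) over 2-fold lower, against 8.14% and 23.7% of all pairs of gene and cluster, so the members as a whole stood close to the background. No member was over 2-fold higher in clusters 3, 7, 11 and 17 (5.06%, 6.08%, 5.51% and 5.15% of all genes), and none was lower in cluster 0 (4.52%). In cluster 19, 11 of 33 were lower (23% of all genes) and 2 higher (7.84%). In cluster 17, 10 were lower (30.1%). The low-UMI cluster 5 had 7 higher (18.9%) and 4 lower (24.1%), and cluster 2 had 5 lower (26.5%). In all, 29 of 33 members were over 2-fold higher in at least 1 cluster, against 80.4% of all genes. Of the highest levels, 10 of 33 were in cluster 14 and 7 in cluster 18, where 20.2% and 8.6% of all genes were over 2-fold higher. The 4 clusters with few UMIs per cell held 19 of the 33. The interval of the highest cluster lay above that of the second for 11 of 33: Fdps, Cyp51, Msmo1, Nr1h3, Abcg1, Srebf1, Pltp, Scd1, Npc1, Npc2 and Lipa. Shares of all genes were not computed for these counts, so they are not read as a trait of the members.

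Other genes of the same pathways gave a similar division for cluster 14 and another for cluster 18. Of 9 other sterol synthesis genes, 8 had at least 20 counts, of which 5 were over 2-fold higher in cluster 14 and 2 in cluster 18, beside 20.2% and 8.6% of all genes here and for the lists that follow. Lbr, a sterol reductase that also anchors chromatin at the nuclear envelope, had 1200 CPM in cluster 14 and Ebp, a sterol isomerase, had 178 CPM there, with per-cell ratios of 3.37 and 0.971. Of 8 other SREBP pathway genes, 4 were higher in cluster 14 and none in cluster 18, with Tmem97 at 110 CPM (11.8 times the others) and the protease gene Mbtps1 at 203 CPM in cluster 14 (per-cell ratios 3.51 and 1.56). Rnf145, a sterol-responsive ubiquitin ligase, had 437 CPM in cluster 5 and a per-cell ratio of 1.04. Of 9 fatty acid synthesis genes, 7 were higher in cluster 14 and 1 in cluster 18: Acsl3 had 163 CPM in cluster 14 (3.35 per cell), and Fads2 had 20.3 CPM in cluster 18. Elovl5 was highest in cluster 16 at 207 CPM (0.861 per cell) and Acly in cluster 19 at 162 CPM.

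Uptake and oxysterol genes differed between the clusters with myeloid markers. Of 16 genes, 15 had at least 20 counts, of which 7 were over 2-fold higher in cluster 10 (6.2% of all genes), 6 in cluster 15 (6.08%), 6 in cluster 19 (7.84%) and 5 in cluster 0 (6.52%). The type 1 dendritic-like cluster 17 had 3 higher (5.15%) and 8 lower (30.1%), and the mature dendritic-like cluster 8 had 1 higher (5.03%) and 4 lower (18.2%). Of the clusters high in synthesis, cluster 14 had 11 lower (24.8%) and cluster 13 had 12 lower (23.1%). Cluster 18, also high in synthesis, had 4 higher (8.6%) and 4 lower (30.4%). Clusters 4 and 9, not high in synthesis, had 12 lower each (33.2% and 24.8%). The uptake receptor Lrp1 had 293 CPM in cluster 10 and 233 CPM in cluster 15. Nceh1, a cholesteryl ester hydrolase, had 105 CPM in cluster 18 and 104 CPM in cluster 10. Of the oxysterol enzymes, Ch25h had 32.9 CPM in cluster 16, which rests on 7 counts, and 13.5 CPM in cluster 0, the highest per cell. Cyp7b1 had 19.5 CPM in the mature dendritic-like cluster 8, 34.5 times the others. Apoe, deleted in these mice, reached at most 17.5 CPM, in cluster 15; 3' tags can still come from a disrupted gene. Among 12 other sterol transfer genes, the lysosomal membrane gene Lamp1 was highest in cluster 10 at 812 CPM and Lamp2 in cluster 19 at 331 CPM. The contact site proteins Gramd1b and Gramd1c reached 51.8 CPM in cluster 16 and 7.60 CPM in cluster 5, with per-cell ratios of 0.838 and 0.607.

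Between the treatments only the shares of cells can be set side by side, with 1 library each and no test. Cluster 10, high in lysosomal release and efflux genes, was 7.62% (6.66–8.68) of the saline library and 3.06% (2.59–3.58) of the nt-LNA library, with exact Clopper-Pearson intervals (ratio 0.401, 0.323–0.498, counting error only). Cluster 15 made up 2.19% (1.67–2.81) and 1.48% (1.16–1.86), with a ratio of 0.676 (0.473–0.968). Of the clusters with high synthesis, cluster 14 made up 1.31% (0.921–1.81) of saline and 3.33% (2.84–3.87) of nt-LNA cells. The 4 clusters with few UMIs per cell and high mitochondrial counts, cluster 14 among them, together made up 12.8% (11.5–14.1) and 25.5% (24.3–26.8), and the part of RNA quality in these shares was not tested. Cluster 13 made up 2.41% (1.87–3.05) and 3.67% (3.16–4.24), with a ratio of 1.53 (1.15–2.06). Cluster 18 made up 0.729% (0.446–1.12) and 0.801% (0.570–1.09), with a ratio of 1.10 (0.625–1.99), where counting error alone spans both directions.

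If each cluster kept its pooled level in both libraries, the shift in shares alone would put the synthesis enzymes at 185 CPM in saline and 203 CPM in nt-LNA cells, a ratio of 1.10. SREBP2 control would stand at 114 and 124 CPM (1.09), the receptors and their targets at 695 and 653 CPM (0.940), and lysosomal release at 689 and 604 CPM (0.877). Per cell, the ratios would be 0.977, 0.967, 0.836 and 0.779. These values describe the mix of clusters and are not levels measured in either library; a change of any member within a cluster was not measured.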

How the data were processed

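The authors' deposited table holds counts of UMIs for each gene and each of 20 clusters, in which the cells of both libraries are added up; 2 further deposited files give the cluster of each cell and the counts of cells per cluster and library, which agreed exactly (difference 0). The submitters' processing notes name Cell Ranger 2.1.1, Seurat and mm9. Cell filters, the settings of the clustering and the handling of doublets are not stated in those notes or the labels. A deposited table of normalised values was not used. Groups follow the labelled treatment.

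From the counts, CPM, ratios over the mean of the other 19 clusters (0.5 CPM added for log2 values and calls) and exact Poisson or Clopper-Pearson 95% intervals were computed for genes with at least 20 counts (Python 3.11.15, numpy 2.4.6, pandas 2.3.3, scipy 1.17.1, matplotlib 3.10.9). TMM factors came from edgeR 4.0.16 in R 4.3.3; edgeR was used for no test. A count of 0 allows 3 counts. The ratio code was tested on simulated data. All 33 members are named; of each other pathway list, the 2 genes with the largest ratio (at least 50 counts) and the 2 with the most counts, and Apoe. A gene that this rule names is not reported here. Members and lists were chosen with earlier results of these data known. No test was run, because the clusters rest on the expression they would be tested for. Alternatives were TMM, totals without mitochondrial and ribosomal protein genes, UMIs per cell, the median as reference, leaving out clusters 2, 5, 14 and 16, a pseudocount of 1 CPM, no minimum count and, for shares, the clusters deposited as Macrophages alone.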

Additional observations from a re-analysis of the deposited data

How the results depend on the processing

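No paired analysis was possible because each treatment has 1 library and the counts pool both. A pseudocount of 1 CPM and no minimum count moved no count of calls by over 1.5 times. The cluster with the highest level was the same for 24 of 33 members under TMM, 29 under totals without mitochondrial and ribosomal protein genes and 5 per cell. The causes of the moves below were not tested.

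Against the median of the other clusters, pairs of member and cluster over 2-fold higher and lower were 56 and 27 for synthesis (main 34 and 66), 11 and 7 for SREBP2 control (main 5 and 13), 46 and 30 for the receptors and targets (main 20 and 67), and 18 higher for the lysosomal genes (main 10). Over all genes, 8.14% and 23.7% of pairs were higher and lower in the main setting, and 14.9% and 10.8% with the median. Over all genes the share of higher calls was 25.6% and, with the median, 58.0%. Without the 4 clusters of few UMIs per cell, synthesis had 42 lower, and SREBP2 control 3 higher and 5 lower. These counts cover fewer pairs, and over all genes 6.9% and 19.6% of pairs were then higher and lower. Per cell, SREBP2 control had 23 lower and the lysosomal genes 32 lower (main 19). Over all genes 34.4% of pairs were then lower, and the median log2 ratio moved from -0.31 to -0.48.

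Summed ratios of synthesis in cluster 13 were 2.07 without mitochondrial and ribosomal genes, 1.69 under TMM, 2.18 with the median and 2.19 without the 4 clusters; in cluster 14, 1.94 under TMM, 1.03 per cell and 2.92 with the median; in cluster 18, 2.88 with the median and 3.03 without the 4 clusters. For the receptors and targets, cluster 11 had 0.452 without mitochondrial and ribosomal genes, 0.459 under TMM and 0.273 per cell, and cluster 15 had 1.78 without the 4 clusters. For the lysosomal genes, cluster 1 had 0.372, 0.379, 0.162 per cell and 0.329 with the median; cluster 10 had 2.30, 2.54, 4.11 per cell, 2.60 with the median and 2.51 without the 4 clusters; and cluster 18 had 1.48 per cell and 1.99 with the median.

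Among medians and ratios at least 2-fold from the others, directions that turned per cell were the median log2 ratios of synthesis in cluster 14 (-0.22), SREBP2 control in cluster 19 (0.34), the receptors and targets in cluster 6 (0.069) and the lysosomal genes in clusters 5 (-1.76) and 6 (0.17, summed ratio 1.02), and the ratios of Lss in cluster 16 (0.607), Sc5d in cluster 5 (0.390), Abca1 in cluster 2 (0.671), Arl4c in cluster 9 (0.746), Lipa in cluster 5 (0.385) and Soat1 in cluster 5 (0.345). Smaller differences turned too, among them the summed ratio of the receptors and targets in cluster 2, from 1.71 to 0.378. For the mix of clusters, nt-LNA over saline was 1.08, 1.04, 0.921 and 0.868 for the 4 groups in the order of the text without the 4 clusters, and 1.09, 1.07, 0.949 and 0.899 in the clusters deposited as Macrophages. Among those clusters the share of cluster 10 had a ratio of 0.565.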

Other observations

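Among 10653 genes with at least 200 counts, those that are no member and whose log2 level over the 20 clusters was most like the mean of the synthesis enzymes were Trp53i13 (Pearson 0.92), Ipo9 (0.87), Matn2 (0.86), Lrp8 (0.86) and Clpb (0.85). Trp53i13 was highest in cluster 14 at 74.4 CPM. For the mean of the receptor and lysosomal genes they were Tmem65 (0.88), P4ha1 (0.88), Adam17 (0.87), BC005537 (0.86) and Slc6a6 (0.86). These are the highest of many correlations over clusters that share 2 libraries and are given as descriptions.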
